A study of Homo sapiens with 6 samples.

Results

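The SLC1 family comprises 7 human genes, SLC1A1 to SLC1A7, and all 7 were listed among the 58735 genes of the count table. The family was chosen by a measured value, the strong rise of SLC1A3 after SON knockdown, and the other 6 genes were taken with it by name. The changes of the members between siSON and siControl are therefore given as descriptions, and nothing is supported with them. RNA was sequenced from RPE-1 cells, a human line derived from retinal pigment epithelium, which carried GFP-tagged CETN2 (a centriole protein) and PLK4 (the kinase that starts centriole duplication) under an rtTA-driven doxycycline promoter. Cells in 3 libraries (siSON) received an siRNA against SON, a protein of nuclear speckles needed for splicing of many pre-mRNAs, and cells in the other 3 (siControl) received a scramble siRNA. Every library came from cells given doxycycline at 1 µg/mL, so both groups had the inducer and no library without it was compared. Nothing in the labels says that replicates came from separate cultures, and the spread between libraries may be technical.

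SLC1 proteins move amino acids across the plasma membrane together with sodium. SLC1A1, SLC1A2, SLC1A3, SLC1A6 and SLC1A7 are the excitatory amino acid transporters EAAT3, EAAT2, EAAT1, EAAT4 and EAAT5, which take up glutamate and aspartate with sodium and a proton and send potassium out. They clear glutamate released by neurons, and SLC1A3 is the main glutamate transporter of radial glia, of Müller glia in the retina and of much of the cerebellum. SLC1A4 (ASCT1) and SLC1A5 (ASCT2) exchange neutral amino acids: SLC1A4 carries alanine, serine, cysteine and threonine, and SLC1A5 also carries glutamine and is widely expressed in dividing cells.

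Promoter sequences were examined because the 3 members with enough counts to test were all higher in siSON. RefSeq promoter windows (GRCh38.p14; 250 bases before to 50 after a start) were held for 6 of the 7 members, 12 windows in all, with none for SLC1A2. Of the motifs searched on both strands, TGATGNAA, the core of the element bound by C/EBP-ATF dimers, was found in 3 of the 12 windows, 1 each for SLC1A3, SLC1A4 and SLC1A5. The same letters were in 3.62% of all 35116 windows. At least 1 window held them for 4.46% of 27305 genes and 2.78% of genes tested. Those 3 windows are printed below 5′ to 3′ on the gene's strand, with the match in capitals. They are shown because this motif was the rarest, over all windows, of the 3 found in a window of each tested member. The GC box and CCAAT were the others. Because the motif was picked for being in all of these members, the shares beside it are no measure of enrichment, and nothing about the rise is read from it.
SLC1A3, chr5:36596338-36596637, plus strand: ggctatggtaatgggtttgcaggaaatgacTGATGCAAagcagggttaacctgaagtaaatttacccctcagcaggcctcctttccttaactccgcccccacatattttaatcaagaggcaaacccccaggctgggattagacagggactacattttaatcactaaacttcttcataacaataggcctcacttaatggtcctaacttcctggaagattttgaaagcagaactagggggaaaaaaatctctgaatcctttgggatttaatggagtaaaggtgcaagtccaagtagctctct
SLC1A4, chr2:64989149-64989448, plus strand: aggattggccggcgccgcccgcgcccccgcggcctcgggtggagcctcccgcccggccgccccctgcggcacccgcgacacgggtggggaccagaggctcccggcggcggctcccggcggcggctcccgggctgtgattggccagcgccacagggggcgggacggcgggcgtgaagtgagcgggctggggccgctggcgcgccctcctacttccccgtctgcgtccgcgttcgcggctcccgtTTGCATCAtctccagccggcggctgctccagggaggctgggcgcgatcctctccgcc
SLC1A5, chr19:46784765-46785064, minus strand: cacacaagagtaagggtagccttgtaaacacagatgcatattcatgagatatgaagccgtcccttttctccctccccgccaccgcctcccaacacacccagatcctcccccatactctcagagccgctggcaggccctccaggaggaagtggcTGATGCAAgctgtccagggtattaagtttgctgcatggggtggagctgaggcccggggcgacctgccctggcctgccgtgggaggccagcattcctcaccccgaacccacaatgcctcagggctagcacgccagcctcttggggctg

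The match began 220 bases before the start in the SLC1A3 window, 97 bases before it in the SLC1A5 window, and 7 bases before it, in the reverse orientation (TTGCATCA), in the SLC1A4 window. The SLC1A3 window belongs to an upstream RefSeq start that lies 9767 bases from the nearest start of the gene in GENCODE release 29. The SLC1A4 and SLC1A5 windows belong to starts within 2 and 10 bases of a GENCODE start, but both starts lie inside the annotated gene. The windows at the outer 5′ ends of SLC1A4 and SLC1A5 (chr2:64988229-64988528 and chr19:46788545-46788844) did not hold these letters. Each of the 3 genes also had other windows without these letters, 2 for SLC1A3, 1 for SLC1A4 and 2 for SLC1A5. The windows of SLC1A1, SLC1A6 and SLC1A7 did not contain them. Of the other motifs, the GC box GGGCGG was in a window of SLC1A1, SLC1A3, SLC1A4, SLC1A5 and SLC1A6. It was in 45.0% of all windows, and in a window of 48.3% of genes and 75.3% of genes tested. CCAAT was in a window of SLC1A3, SLC1A4 and SLC1A5 (34.6% of all windows, 39.7% of genes and 43.1% of genes tested). In the same order of shares, the E-box CACGTG was in 1 of SLC1A5 and 1 of SLC1A7 (7.26%, 8.77% and 12.2%). TGACNNNGC, the core of the antioxidant response element, was in 1 of SLC1A3 and 1 of SLC1A5 (13.3%, 16.1% and 19.3%). Neither TATAAA (11.5% of all windows) nor the cyclic AMP response element TGACGTCA (1.85% of all windows) occurred in a window of the family. As a description of the rest of the table, TGATGNAA was in a window of 3.19% of the genes that were called higher in siSON, 2.19% of those called lower, and 3 of 28 other amino acid carriers. These matches are descriptions of letters, and binding was not measured.

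Library totals ran from 54572365 to 69764836 counts, so 3 counts in a library corresponded to 0.0402 to 0.0590 CPM (counts-per-million, here with library sizes adjusted by TMM, a scaling which assumes that most genes do not change). These floors cover counting error only, since no molecular identifiers were counted and PCR copies of a molecule may be among the reads. SON, the siRNA target, had 297 ± 14.5 CPM in siControl and 67.6 ± 2.49 CPM in siSON (SD, n = 3 each), with p = 0.1 in an exact permutation test (2-sided), the lowest value possible for groups of 3. PLK4 had 177 ± 12.4 CPM in siControl and 138 ± 23.3 CPM in siSON (SD over 3 libraries; log2 fold change -0.36, edgeR adjusted p 0.0143), so its level differed between the groups. Of the 15 marker genes of retinal pigment epithelium examined, 10 had enough counts to be tested, of which 6 were called higher and 4 lower. Of all genes tested, 35.2% were called higher and 36.5% lower. KRT18, OTX2, MERTK, BEST1, MITF and KRT8 had log2 fold changes of 1.48, 0.82, 0.72, 0.62, 0.52 and 0.34. RDH5, PMEL, LRAT and SERPINF1 had -3.57, -3.36, -2.62 and -1.29 (edgeR adjusted p at most 0.00268 for all 10). TTR and TYR had no counts, and RPE65, RLBP1 and TYRP1 averaged under 10 counts per library. Some markers of the differentiated tissue were thus at or near 0 in this line, and others were not. BEST1 had 8.13 ± 0.447 CPM and MERTK had 6.08 ± 0.714 CPM in siControl (SD, n = 3 each). Because the RNA is from bulk cultures, a change in the share of cells that express a gene and a change in RNA per cell cannot be told apart.

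SLC1A3, the glutamate transporter EAAT1, was barely counted in siControl. It had 7, 17 and 22 counts in siControl replicates 1 to 3 and 335, 238 and 215 counts in siSON replicates 1 to 3. In CPM these were 0.10, 0.267 and 0.294 against 5.77, 4.61 and 4.23. The groups lay far apart, with the lowest siSON library above 4 CPM and every siControl library below 0.3 CPM, and siControl replicate 1 was the lowest of all. The group values were 0.221 ± 0.105 and 4.87 ± 0.803 CPM (SD, n = 3 each), and the mean in siSON was 22.1 times that in siControl. The fitted log2 fold change was 4.45 (SE 0.29), the 29th largest of the 16591 genes tested. Leaving out siControl replicate 1 gave 4.08. SLC1A3 passed the filter on low counts through the siSON libraries.

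The gene lies on GRCh38 chromosome 5, 36606355 to 36688334, plus strand (ENSG00000079215; 16 annotated transcripts). No annotated exon of another gene overlaps its exons, and 3 RNA genes of uncertain or antisense type overlap its span. One of them, AC008957.3, is on the same strand between SLC1A3 exons, and it had 0 counts in each siControl library and 12, 3 and 3 counts in siSON. The antisense gene AC008957.1 had 0, 2 and 3 counts in siControl and 1, 0 and 1 in siSON, and AC008957.2 had 0 in all 6 libraries. Without a stated counting rule, reads of SLC1A3 introns and of AC008957.3 cannot be told apart.

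SLC1A3 is best known from glia, so astrocyte and Müller glia markers were examined beside it. Of 12 such genes, 8 averaged under 10 counts per library, and AQP4, FABP7, HES5 and NTSR2 had no counts in any library. GFAP, the filament protein of reactive glia, had 16, 8 and 4 counts in siControl and 0, 2 and 0 in siSON, and S100B had 4, 2 and 8 against 0, 0 and 0. The summed level of the list was 236 to 256 CPM in siControl and 166 to 174 CPM in siSON, nearly all of it the gap junction gene GJA1 (240.3 ± 9.85 and 168 ± 3.59 CPM, SD, n = 3 each). Of the 4 markers tested, 3 were called lower and none higher, where 36.5% of all genes tested were called lower. CRYAB went from 3.92 ± 0.146 to 0.977 ± 0.160 CPM, and ALDH1L1 and GJA1 had log2 fold changes of -1.62 and -0.52 (edgeR adjusted p 1.11e-06, 0.000442 and 3.39e-06). SOX2 was not called and its groups overlapped (-0.46, edgeR adjusted p 0.340). SLC1A3 was higher in siSON, while the 12 glial markers of this list were at or near 0, lower or, for SOX2, not called. GLUL, glutamine synthetase, is also used as a marker of these glia but was listed here with the enzymes. It went the other way, from 107 ± 0.257 to 193 ± 9.24 CPM (SD, n = 3 each). Its log2 fold change was 0.85 (edgeR adjusted p 8.46e-08), and it was named after its values were seen. Neuron markers summed to 128 to 129 CPM in siControl and 80.7 to 84.0 CPM in siSON, with RBFOX3, SLC32A1 and STMN2 at 0. SYT1 fell by more than the sum did (92.0 ± 2.32 to 30.4 ± 1.36 CPM), while SNAP25 and MAP2 each rose by 0.85 (edgeR adjusted p 0.000142 and 1.27e-05). Of the 5 tested, 2 were called higher and 2 lower, where 71.7% of all genes were called. Fibroblast markers summed to 778 to 796 CPM in siControl and 404 to 499 CPM in siSON. None of the 8 was at 0 in all libraries, but DCN and LUM averaged under 10 counts per library. Among the 6 tested, 4 were called lower, none higher and 2 not called, where 36.5% of all genes tested were called lower.

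**Figure D1:**
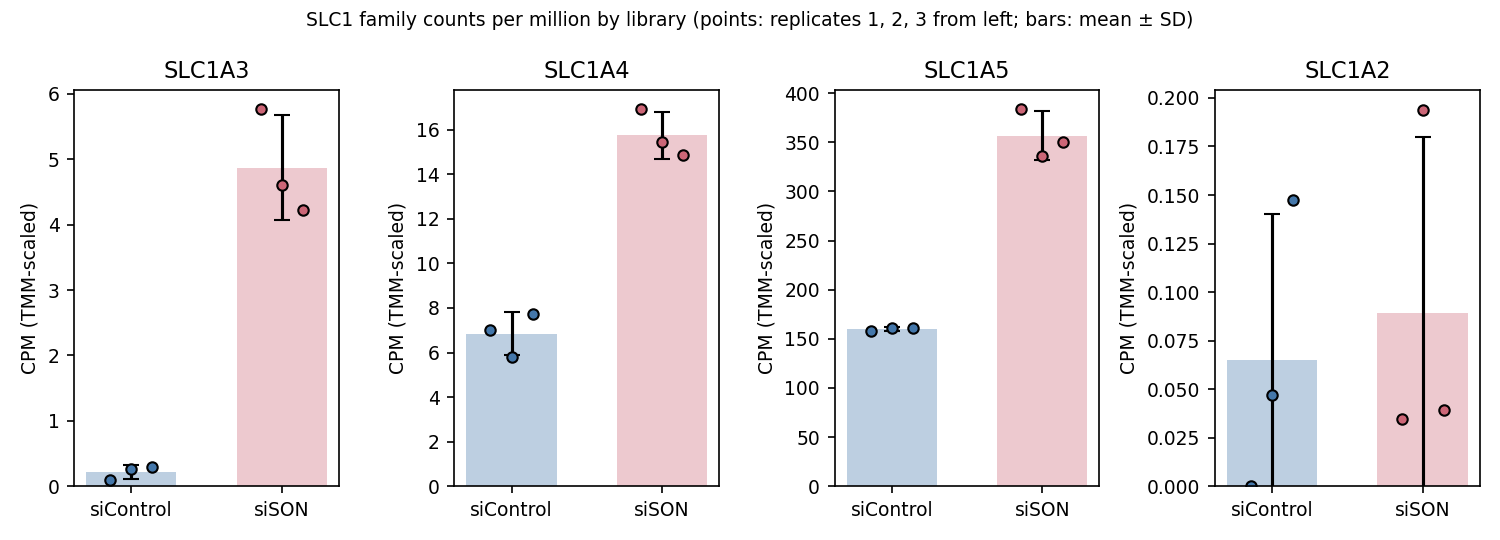
TMM-scaled CPM of SLC1A3, SLC1A4, SLC1A5 and SLC1A2 (y axes, each starting at 0) in siControl and siSON, with 1 point per library and bars for the mean ± SD of 3. The groups are apart for SLC1A3, SLC1A4 and SLC1A5, and they overlap for SLC1A2, whose values stay below 0.2 CPM.

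SLC1A5, the glutamine and neutral amino acid exchanger ASCT2, was the most abundant member. Its CPM values were 158.1, 161 and 160.5 in siControl replicates 1 to 3 and 384, 336 and 350.2 in siSON replicates 1 to 3. The siControl libraries lay within 4 CPM of each other and every siSON library lay above them. The means were 160.0 ± 1.75 and 357 ± 24.6 CPM (SD, n = 3 each), and siSON was 2.23 times siControl, with a log2 fold change of 1.16 (SE 0.06). Under cyclic loess normalization it was 0.82. SLC1A5 lies on chromosome 19, 46774883 to 46788594, minus strand (ENSG00000105281; 6 transcripts). On the other strand, AC008622.2 shares 780 bases, or 23.4% of the SLC1A5 exon union. AC008622.2 had 24, 37 and 30 counts in siControl and 68, 49 and 43 in siSON. The strand setting of the counting is not given in the sources used here, so reads from the shared bases cannot be assigned with certainty.

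SLC1A4, the exchanger of alanine, serine, cysteine and threonine, was counted less deeply. It had 7.02, 5.79 and 7.71 CPM in siControl and 16.9, 15.4 and 14.9 CPM in siSON, from 368 to 983 counts per library. The groups did not overlap, and siControl replicate 2 was the lowest library. The means were 6.84 ± 0.973 and 15.7 ± 1.07 CPM (SD, n = 3 each), a ratio of 2.30 and a log2 fold change of 1.20 (SE 0.12). It lies on chromosome 2, 64988477 to 65023865, plus strand (ENSG00000115902; 5 transcripts), and within its span only the small nuclear RNA gene RNU6-548P is annotated, with 0 to 2 counts and no exon in common.

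The 4 other glutamate transporters stayed near the counting floor and did not pass the filter. SLC1A2, the main glutamate transporter of forebrain astrocytes, had 0, 3 and 11 counts in siControl and 2, 10 and 2 counts in siSON, 14 in all in each group. Its groups overlapped, with the highest library at 0.194 CPM. SLC1A1, the neuronal and epithelial transporter, had no count in any library. SLC1A6, known from cerebellar Purkinje cells, had 1 count in 1 siSON library, and SLC1A7, known from retina, had 1 count in another; both had none in siControl. A count of 0 over the 3 libraries of a group allows a level of up to 3 counts, which is 0.0144 CPM in siControl and 0.0187 CPM in siSON. Changes of these 4 genes were not detectable at this depth.

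As a description, the 3 members that passed the filter (SLC1A3, SLC1A4 and SLC1A5) were among the genes called higher by edgeR (quasi-likelihood test over all genes, threshold 0.05 on the adjusted p). In that fit 71.7% of the 16591 genes tested were called, 35.2% higher and 36.5% lower, with a median log2 fold change of -0.03. Since SLC1A3 chose the family in this contrast, nothing is read from the members' count. The log2 fold changes of SLC1A4 and SLC1A5 stood at percentiles 94.2 and 93.6 of all genes tested, and that of SLC1A3 at 99.8. Scaling by library size alone lowered the median of all genes to -0.22, and gave 4.25, 1.00 and 0.96 for SLC1A3, SLC1A4 and SLC1A5.

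Levels of different genes were compared per kilobase of annotated exon (the union of exons, 6265 bases for SLC1A3, 6939 for SLC1A4 and 3332 for SLC1A5). In siControl the order was SLC1A5 at 48.0 ± 0.526, SLC1A4 at 0.986 ± 0.140 and SLC1A3 at 0.0352 ± 0.0168 CPM per kilobase (SD, n = 3). In siSON it was SLC1A5 at 107 ± 7.37, SLC1A4 at 2.27 ± 0.154 and SLC1A3 at 0.778 ± 0.128 CPM per kilobase (SD, n = 3). This order held in each of the 6 libraries, and no neighbouring ranges overlapped. SLC1A2 came next at 0.00284 ± 0.00329 in siControl and 0.00391 ± 0.00397 in siSON (CPM per kilobase), a level that cannot be ordered against those of SLC1A1, SLC1A6 and SLC1A7 at these counts.

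**Figure D2:**
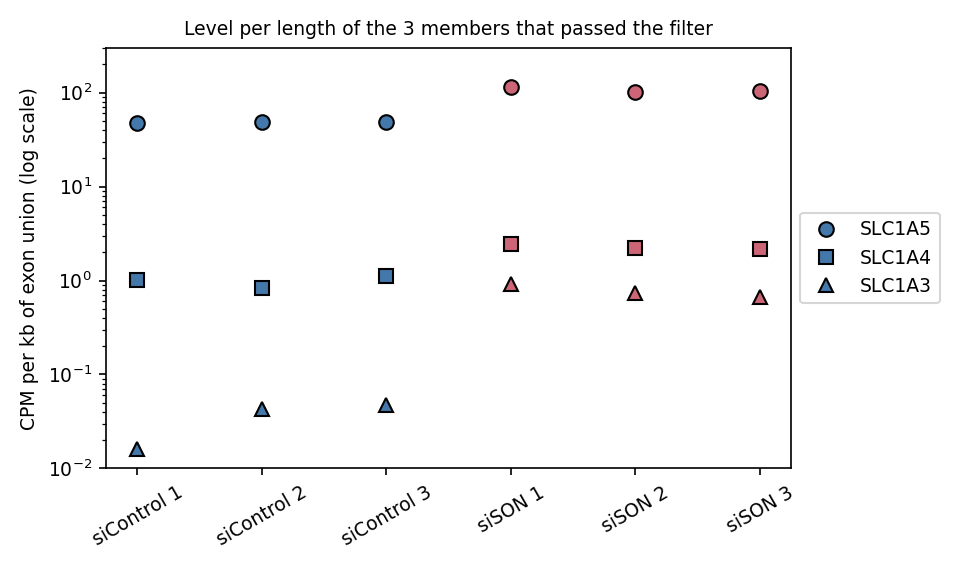
Level per length (CPM per kilobase of exon union, log scale) of SLC1A5, SLC1A4 and SLC1A3 in each of the 6 libraries. SLC1A5 is 43.3 to 58.1 times SLC1A4 in every library, and the gap between SLC1A4 and SLC1A3 is narrower in the siSON libraries.

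SLC1A5 made up 97.9% ± 0.291 of the family's per-length level in siControl and 97.2% ± 0.134 in siSON (SD, n = 3 each). SLC1A4 made up 2.01% ± 0.289 and 2.06% ± 0.0775, which differed by less than the spread between libraries. SLC1A3 went from 0.0716% ± 0.0337 to 0.704% ± 0.0757. The per-length ratio of SLC1A5 to SLC1A4 was 46.9, 58.1 and 43.3 in siControl and 47.2, 45.4 and 49.0 in siSON, so the groups overlapped. The ratio of SLC1A4 to SLC1A3 was 63.2, 19.5 and 23.6 in siControl and 2.65, 3.02 and 3.17 in siSON, with no overlap. Among the glutamate transporters, SLC1A3 was thus the one that was well above the counting floor in siSON, and it remained the least abundant of the 3 tested members.

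All solute carrier genes were considered next, a comparison added after the data were seen. Of 228 such protein-coding genes tested, 91 were called higher and 88 lower, 78.5% in all beside 71.7% of all genes. Their median log2 fold change was 0.05. SLC1A3 had the highest log2 fold change of the 228, SLC1A4 ranked 24th and SLC1A5 26th; the first place restates how the family was chosen, and the fold rests on 46 counts in all of siControl. The genes that followed SLC1A3 were SLC35F3 (2.82, edgeR adjusted p 1.14e-07) and SLC2A3, the neuronal glucose transporter GLUT3 (2.39, adjusted p 4.05e-08), with their log2 fold changes.

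**Figure D3:**
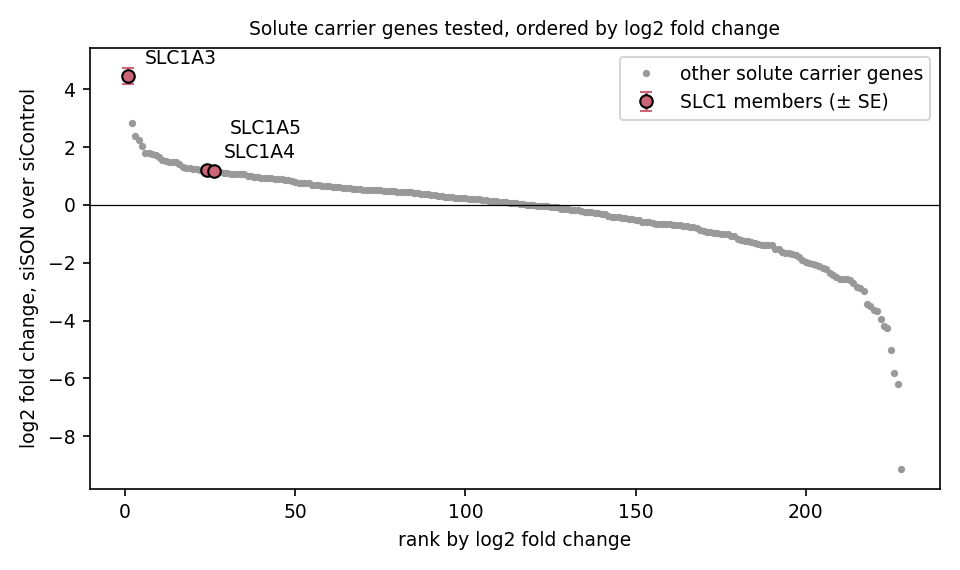
Log2 fold change (siSON over siControl) of the 228 solute carrier genes tested, ordered from highest to lowest, with SLC1 members in red (bars: SE of the fit). SLC1A3 is first at 4.45, and SLC1A4 and SLC1A5 lie together at 1.20 and 1.16.

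Other carriers share substrates with the family. The 35 other amino acid carriers listed are mostly known from the plasma membrane, but some, SLC38A9 and SLC6A17 among them, from membranes inside the cell. Of these, 19 were tested, 11 were called higher, 4 lower and 4 not called. Their median log2 fold change was 0.46 beside -0.03 for all genes. The share called was 78.9%, beside 71.7% of all genes. With library size alone the split was 10 higher and 6 lower. SLC7A5 (LAT1), which exports glutamine in exchange for leucine and other large neutral amino acids, had the largest rise, from 226 ± 25.5 to 777 ± 48.2 CPM in siSON (SD over 3 libraries; fitted log2 change 1.78, SE 0.08, edgeR adjusted p 1.35e-08). Its heavy chain SLC3A2, named after its values were seen, rose by 1.07 (edgeR adjusted p 3.84e-08) on the log2 scale. SLC38A9, which is listed here by its family although it is the lysosomal arginine sensor of mTORC1, and SLC43A1 (LAT3) rose by 1.13 and 1.09 (edgeR adjusted p 4.39e-07 and 2.80e-05). The glutamine carriers SLC38A1 and SLC38A2 and the cystine and glutamate exchanger SLC7A11, also named after their values were seen, rose by 0.75, 0.87 and 0.57 (edgeR adjusted p 3.10e-06, 1.63e-07 and 0.00292). The largest falls were those of SLC38A3, a glutamine carrier of liver and brain (-3.42), SLC6A17 (-0.86) and SLC43A2 (-0.66), with edgeR adjusted p-values of 3.14e-05, 7.22e-06 and 0.00168. SLC38A3 was low in both groups, with 0.687 ± 0.185 and 0.0628 ± 0.0133 CPM (SD, n = 3 each).

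**Figure D4:**
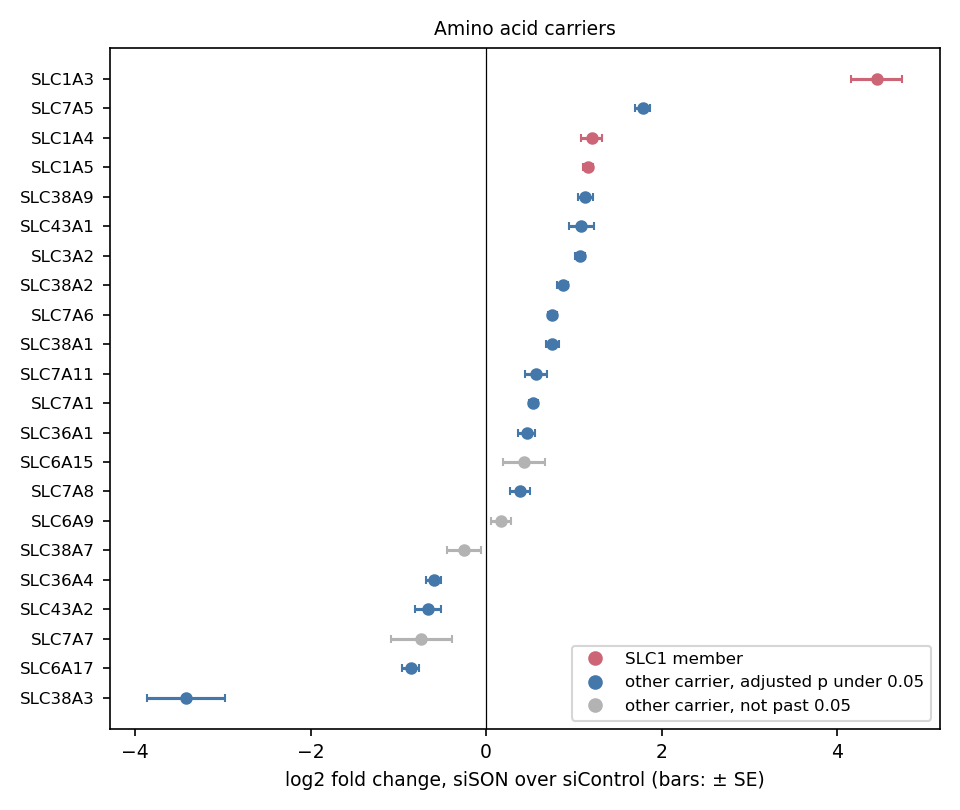
Log2 fold change (siSON over siControl, bars: SE of the fit) of the 3 SLC1 members tested, in red, and the 19 other amino acid carriers tested. Blue carriers were called at an adjusted p under 0.05 (11 higher, 4 lower) and grey ones were not.

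Glutamate and aspartate are also carried into vesicles and mitochondria. Of 7 such carriers 4 were tested, with 2 called higher and 2 lower, where 71.7% of all genes were called. SLC25A12 (aralar), the mitochondrial aspartate and glutamate carrier, rose by 0.55 (edgeR adjusted p 0.000197), while its paralog SLC25A13 (citrin) had a log2 fold change of -1.38 (edgeR adjusted p 6.43e-08). SLC25A22, a mitochondrial glutamate carrier, rose by 0.21 (edgeR adjusted p 0.0312). That call was lost with library size alone (0.013, adjusted p 0.890), with a mean count of at least 50 (0.15, adjusted p 0.101), and without siControl replicate 2, siControl replicate 3 or siSON replicate 2 (adjusted p 0.0732, 0.163 and 0.0662). The vesicular transporter SLC17A7 was low and fell from 0.524 ± 0.0942 to 0.0990 ± 0.0529 CPM (SD over 3 libraries; edgeR adjusted p 0.000672).

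Of 32 enzymes that make or use glutamine, glutamate and aspartate, 28 were tested, 9 were called higher, 11 lower and 8 not called, a share of 71.4% called that is near the 71.7% of all genes, with a median log2 fold change of -0.02. The largest rises were those of GPT2, the mitochondrial alanine aminotransferase (1.56), GFPT1, which uses glutamine to make hexosamine (1.39), and ALDH18A1, which starts proline synthesis from glutamate (0.96), with edgeR adjusted p-values of 1.30e-08, 2.82e-09 and 2.37e-08. The largest falls were those of GLS2, the liver-type glutaminase (-3.74), ASPA, which cleaves N-acetylaspartate (-3.44), and ASL, argininosuccinate lyase (-3.38), with edgeR adjusted p-values of 2.21e-05, 8.32e-06 and 2.62e-09. GLS2 and ASPA were near or below 1 CPM in siControl, whereas ASL fell from 22.3 ± 2.60 to 2.15 ± 0.155 CPM (SD, n = 3 each). ASNS, asparagine synthetase, had only 8 to 15 counts per library. It shares 44.6% of its exon union with AC079781.5 on the same strand, so its level is uncertain.

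Glutathione synthesis uses glutamate, cysteine and glycine, and serine is a substrate of SLC1A4 and SLC1A5. Of 10 genes of glutathione synthesis and turnover 8 were tested, with 4 called higher and 4 lower, where 71.7% of all genes were called. CHAC1, which degrades glutathione, rose from 2.28 ± 0.166 to 17.1 ± 1.80 CPM in siSON (SD over 3 libraries; fitted log2 change 2.91, edgeR adjusted p 5.16e-09). GSR, glutathione reductase, and GCLC, a subunit of glutamate-cysteine ligase, rose by 0.58 and 0.46 (edgeR adjusted p 5.33e-06 and 8.77e-05). GGT1 (-3.14), GSS, glutathione synthetase (-1.87), and CHAC2 (-1.17) had the largest falls, with edgeR adjusted p-values of 1.39e-08, 1.73e-09 and 0.000116. All 6 genes of serine and glycine synthesis were tested, with 2 called higher and 2 lower (66.7% called). PSAT1 and PHGDH, of the serine pathway, rose by 1.03 and 0.71 (edgeR adjusted p 5.02e-07 and 2.55e-07). SHMT2 and SHMT1, which convert serine to glycine, had log2 fold changes of -1.94 and -0.82 (edgeR adjusted p 8.39e-10 and 2.83e-06). With library size alone the serine and glycine split was 2 higher and 4 lower.

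Partners and regulators known from work on SLC1 proteins were all tested, 11 of 11, with 5 higher, 4 lower and 2 not called. The share called was 81.8%, beside 71.7% of all genes. With library size alone or cyclic loess the split was 4 higher and 5 lower. Among those with a role in the glutamate transporters, SLC9A3R1 (NHERF1), which binds SLC1A3, and AJUBA, which binds SLC1A2, rose by 0.51 and 0.58 (edgeR adjusted p 8.17e-06 and 1.47e-05). YY1, a repressor of the SLC1A3 and SLC1A2 promoters, rose by 0.62 (edgeR adjusted p 2.07e-06). MTDH, reported to lower SLC1A2 transcription, fell from 130 ± 3.09 to 72.9 ± 0.467 CPM (SD over 3 libraries; edgeR adjusted p 7.52e-08). ARL6IP5, an inhibitor of SLC1A1, had a log2 fold change of 0.07 (SE 0.05, edgeR adjusted p 0.227), which turned to -0.13 with library size alone and -0.22 under cyclic loess (adjusted p 0.0272 and 0.00107). RTN2, which helps SLC1A1 leave the endoplasmic reticulum, had one of -0.60 (edgeR adjusted p 0.000442). ARHGEF11, which binds SLC1A6, had a value of 0.26 (edgeR adjusted p 0.00366). The ARHGEF11 call was lost with library size alone (0.058, adjusted p 0.440) and under cyclic loess (0.10, adjusted p 0.166).

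Regulators of membrane abundance were NEDD4L, RNF5 and SGK1. NEDD4L, a ubiquitin ligase that acts on several carriers, rose by 0.95 (edgeR adjusted p 1.68e-06). RNF5, a ubiquitin ligase that promotes degradation of SLC1A5 and SLC38A2, fell from 43.1 ± 1.97 to 15.8 ± 0.409 CPM (SD over 3 libraries; edgeR adjusted p 1.55e-08). SGK1, a kinase that raises surface levels of glutamate transporters, had a log2 fold change of -0.08 (SE 0.22, edgeR adjusted p 0.761).

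Glutamate receptors were low throughout. Of 26 genes 9 were tested, with 3 called higher and 3 lower (66.7% called, beside 71.7% of all genes), and 8 had no counts in any library. The list summed to 7.58 to 9.80 CPM in siControl and 7.39 to 8.86 CPM in siSON, so its total overlapped between groups. GRM8 and GRIK2 had the largest rises with groups apart (log2 fold changes 2.40 and 1.96, edgeR adjusted p 0.000519 and 6.01e-05). GRIK5, GRIN2D and GRIN2C had the largest falls (-2.48, -1.77 and -1.66, edgeR adjusted p 2.75e-05, 0.00331 and 1.82e-05).

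The genomic neighbours of the tested members were read from the same fit. The nearest tested protein-coding genes of SLC1A3 were RANBP3L, 304 kilobases to the left, with a log2 fold change of -3.26 (edgeR adjusted p 0.000629), and the cohesin loader NIPBL, 188 kilobases to the right, with 0.52 (edgeR adjusted p 1.07e-05). Beside SLC1A4, SERTAD2 and CEP68 had log2 fold changes of -0.84 and -0.53 (edgeR adjusted p 1.25e-06 and 0.000373). Beside SLC1A5, STRN4 and AP2S1 rose by 0.81 and 0.53 (edgeR adjusted p 3.27e-07 and 1.84e-06). Of these 6 neighbours 3 were called higher and 3 lower, beside 35.2% and 36.5% of all genes tested.

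The genes whose log2 CPM followed that of SLC1A3 most closely across the 6 libraries were sought among the 260 other tested genes with a log2 fold change of at least 2. They were AC104532.2, GRAMD1C, MAML3, STK40 and RNU6-36P, with Pearson correlations of 1.00, 0.997, 0.996, 0.994 and 0.993. These values describe 6 libraries in 2 groups, and every gene compared was chosen to rise, so high correlations follow from the choice. With a smaller prior count AC104532.2, GRAMD1C and MAML3 stayed among the 5. GRAMD1C, a sterol transport protein, went from 2.47 ± 0.480 to 9.94 ± 0.381 CPM, and MAML3, a Notch coactivator, from 4.38 ± 1.04 to 18.03 ± 0.857 CPM (SD, n = 3 each).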

How the data were processed

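RNA-seq was made from 6 libraries of RPE-1 cells, 3 siControl and 3 siSON. The authors deposited 1 table of raw gene counts (whole numbers), with 1 column per library per the file headers. The submitters' processing notes name cutadapt 1.16, STAR 2.5.2a, featureCounts 1.6.2, DESeq2 1.28.1 and build hg38 without roles; annotation, strand and multi-mapping settings are not given in the sources used here. All 58735 identifiers matched GENCODE release 29 (GRCh38), which gave positions and exon lengths. Members, gene lists and tests were chosen with earlier results of these data known.

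The test was that of edgeR 4.0.16 under R 4.3.3 (filterByExpr with minimum count 10, TMM, robust quasi-likelihood test with group alone), Benjamini-Hochberg adjustment over 16591 genes and a threshold of 0.05. It was first run on simulated counts in which far fewer genes changed than were called here, so that run does not cover a change this broad. SE is the absolute log2 fold change over the square root of F. Genes named are all members; checks of the line; the 3 largest rises and falls per list among called genes with groups apart; the tested partners; nearest neighbours; and the 5 genes most correlated with SLC1A3 (log2 CPM, prior count 2). Alternatives were DESeq2 1.42.0, limma 3.58.1 (voom, cyclic loess), other scalings and filters, a replicate block and omission of each library. Some genes covered by this rule are not reported here.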

Additional observations from a re-analysis of the deposited data

How the results depend on the processing

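SLC1A3, SLC1A4, SLC1A5 and SON kept their direction under all 14 alternatives, which for the members is no support since SLC1A3 chose them: log2 fold changes ranged from 4.08 to 4.80, 1.00 to 1.41, 0.82 to 1.21 and -2.42 to -2.10. The number of genes called (11888) ranged from 10226 to 12604, with 4441 higher and 7351 lower under library size alone. Requiring a mean count of at least 50 left 2 called vesicular and mitochondrial carriers (4 before) and 3 called glutamate receptors (6 before): SLC17A7 and the receptors lost were no longer tested, and SLC25A22 was tested but not called. With the replicate block the members' values were 4.44, 1.21 and 1.16 and 12313 genes were called; same-numbered libraries correlated by 0.0461 to 0.194 in their deviations and others by -0.138 to 0.0286. Each library correlated best with its own number. In the file headers, libraries of the same number also carry consecutive running numbers, whose meaning the headers do not give. These are hints, and no label states a pairing. Because 1 pair was under 0.1, the replicate numbers were not taken to pair the libraries. With the longest transcript as length, SLC1A3 made up 0.912% and SLC1A5 96.9% of the family level in siSON. SLC1A1, SLC1A2, SLC1A6 and SLC1A7 have no main value; without a filter SLC1A2 had 0.42 (SE 0.97, edgeR adjusted p 0.749). Depth limits statements on these 4 genes and on the siControl level of SLC1A3.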
